A study of Mus musculus with 14 samples.

Results

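The 10 genes described here make the chemical signals of the enteric nervous system, and they were taken as a named list: Chat, Slc18a3, Nos1, Vip, Tac1, Penk, Gal, Npy, Calcb and Th. They are 10 of the 40481 genes of the bulk count table, and all 10 were among the 20886 genes tested. The mice were C57BL/6, and the study compared a genotype labelled Carmn iKO (labelled KO below) with controls labelled WT mTmG (WT below). Carmn is a long noncoding RNA gene, and mTmG is a reporter allele in which Cre recombinase switches a membrane red fluorescent protein to a green one. The labels name mTmG for the controls only. The sources used here do not say what "iKO" stands for, which Cre driver or inducing agent was used, which part of Carmn was deleted, or how old the mice were. RNA was sequenced from the muscularis, dissected by hand and frozen, in 4 groups of 3 libraries: labelled KO colon (tags m1, t4 and t6 in the sample titles), WT colon (t1, t6 and t7), labelled KO jejunum (m1, t1 and t4) and WT jejunum (t1, t6 and t7). Nuclei of the colonic muscularis were also sequenced, in 1 library per genotype.

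Enteric neurons lie in plexuses within the gut wall, mainly in the myenteric plexus between the muscle layers. Excitatory motor neurons release acetylcholine and tachykinins, which contract the muscle. Inhibitory motor neurons release nitric oxide, vasoactive intestinal peptide and purines, which relax it, while enkephalins, galanin, neuropeptide Y and calcitonin gene-related peptide act as co-transmitters and modulators. Chat makes acetylcholine and Slc18a3 loads it into vesicles, Nos1 makes nitric oxide in neurons, and Th catalyses the rate-limiting step of catecholamine synthesis. Vip, Tac1, Penk, Gal, Npy and Calcb encode peptide precursors: of vasoactive intestinal peptide, of substance P and neurokinin A, of the enkephalins, of galanin, of neuropeptide Y and of the beta form of calcitonin gene-related peptide.

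Several of these genes are textbook targets of factors that bind the cAMP response element, whose core is the TGACG motif, so the promoters were read for it. RefSeq promoter windows of 300 bases (250 before to 50 after the annotated start, build GRCm38.p6) matched 8 of the 10 genes. Penk and Calcb were not among the matches. TGACG, on either strand, was found in 7 of the 8 windows, all but Npy, against 20.8% of 32851 windows of that length in the RefSeq table. The palindrome TGACGTCA, which contains TGACG on both strands, was found in 1 of the 8, Th, against 1.79% of all windows. The windows of 5 genes are shown because they cover the motif at different places in genes of the main transmitter classes. Each reads 5′ to 3′ on the gene's own strand, with TGACG or its reverse complement CGTCA in capitals. They lie at chr10:5638968-5639267 (Vip, plus strand), chr6:7554811-7555110 (Tac1, plus strand), chr5:117866589-117866888 (Nos1, plus strand), chr14:32465860-32466159 (Chat, minus strand) and chr7:142899946-142900245 (Th, minus strand).
Vip: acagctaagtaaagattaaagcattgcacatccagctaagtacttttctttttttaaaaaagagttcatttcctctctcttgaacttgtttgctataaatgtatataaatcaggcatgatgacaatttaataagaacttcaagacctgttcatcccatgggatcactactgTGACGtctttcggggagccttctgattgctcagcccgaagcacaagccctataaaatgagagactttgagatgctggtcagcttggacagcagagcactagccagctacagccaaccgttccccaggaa
Tac1: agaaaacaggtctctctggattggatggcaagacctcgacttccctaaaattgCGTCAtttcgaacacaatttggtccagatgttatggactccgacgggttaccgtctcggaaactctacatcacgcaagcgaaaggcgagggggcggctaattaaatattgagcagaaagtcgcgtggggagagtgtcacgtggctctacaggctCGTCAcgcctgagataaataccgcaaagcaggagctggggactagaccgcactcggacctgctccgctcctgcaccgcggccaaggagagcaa
Nos1: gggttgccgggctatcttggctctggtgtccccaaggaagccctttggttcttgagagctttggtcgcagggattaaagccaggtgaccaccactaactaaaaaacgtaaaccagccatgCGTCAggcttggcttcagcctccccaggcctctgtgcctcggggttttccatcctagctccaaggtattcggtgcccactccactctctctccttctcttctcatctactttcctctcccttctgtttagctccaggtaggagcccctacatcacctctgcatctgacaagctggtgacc
Chat: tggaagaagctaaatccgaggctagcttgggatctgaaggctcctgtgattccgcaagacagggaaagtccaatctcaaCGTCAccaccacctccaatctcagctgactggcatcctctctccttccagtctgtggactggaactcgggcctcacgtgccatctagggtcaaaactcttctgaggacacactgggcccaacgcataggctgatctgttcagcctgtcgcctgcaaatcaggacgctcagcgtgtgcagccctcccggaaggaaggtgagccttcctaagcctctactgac
Th: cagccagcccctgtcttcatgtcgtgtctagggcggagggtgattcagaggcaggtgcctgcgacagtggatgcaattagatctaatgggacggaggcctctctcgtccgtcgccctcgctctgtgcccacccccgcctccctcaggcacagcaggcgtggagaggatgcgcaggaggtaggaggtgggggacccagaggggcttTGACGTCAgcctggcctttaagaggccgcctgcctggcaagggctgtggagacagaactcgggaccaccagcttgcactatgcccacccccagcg
The motif began 79 bases before the start in Vip, 130 in Nos1, 171 in Chat, 197 and 43 in Tac1, and 45 and 42 in Th, whose 2 hits are the overlapping strands of the palindrome. These starts are those of the RefSeq windows. For Nos1 and Th the window lies inside the GENCODE gene span given in the next paragraph and does not cover its 5′ end. Their hits are thus placed against an internal start of that span. A match is only a match of letters, and no binding was measured here.

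The genes lie on 7 chromosomes of build GRCm38, in coordinates of the GENCODE M21 annotation. Chat (chr14:32408203-32465989) and Slc18a3 (chr14:32462438-32464850) share a locus on the minus strand, with Slc18a3 inside the span of Chat and 0 exon bases in common. Nos1 is at chr5:117781032-117958840, Vip at chr10:5639218-5647617, Tac1 at chr6:7554879-7565834, Npy at chr6:49822710-49829507 and Calcb at chr7:114718643-114723365, all on the plus strand. Penk (chr4:4133531-4138819), Gal (chr19:3409915-3414544) and Th (chr7:142892752-142931128) are on the minus strand. Nos1 shares 268 exon bases with the antisense gene Gm26995, and Penk shares 233 with A830012C17Rik on the opposite strand. The sources used here do not state whether strand was used in counting, so reads from these overlaps cannot be assigned with certainty.

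Library totals ran from 24254905 to 44315104 assigned reads. Carmn itself went against the genotype label in the bulk libraries. In colon it was at 461, 304 and 718 CPM (reads scaled to a common library size) in labelled KO libraries m1, t4 and t6 and at 252, 171 and 351 in WT, and in jejunum at 996, 817 and 909 against 240.3, 206 and 326. The difference was 0.94 on the log2 scale in colon (SE 0.34, edgeR adjusted p = 0.234) and 1.82 in jejunum (SE 0.34, edgeR adjusted p = 0.0646), higher in the labelled KO in both. In nuclei the order was the labelled one, with 6.29 Carmn UMIs (unique molecular identifiers, 1 per captured RNA molecule) per 10000 in smooth muscle-like nuclei of the labelled KO and 16.7 in those of the WT. Without knowing which bases of Carmn were removed, counts over the whole gene may or may not test the label. Every direction given for genotype below therefore compares libraries by their labels. No label says that libraries came from separate animals, so the p-values below measure the spread between these samples, which may be technical.

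Levels came first. CPM are scaled to TMM-adjusted library sizes throughout. In WT colon, Nos1 was at 507, 260.4 and 464 CPM in libraries t1, t6 and t7, and in WT jejunum at 175, 153 and 166. Every WT colon library was above every WT jejunum library for this gene. Th was at the other end, at 0.185, 0.055 and 0.195 CPM in WT colon, which is 6, 2 and 5 reads. Long transcripts collect more reads, so genes were ranked by CPM per kilobase of exon. In WT colon that order was Vip (84.4), Penk (80.6), Gal (52.8), Nos1 (36.8), Tac1 (20.9), Slc18a3 (13.5), Calcb (11.6), Npy (9.51), Chat (1.44) and Th (0.0614 CPM per kilobase). Neighbours whose libraries overlapped were Vip and Penk, Gal and Nos1, Slc18a3 and Calcb, and Calcb and Npy.

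In WT jejunum the order differed. Gal led at 75.3 CPM per kilobase, above the next gene in every library, followed by Penk (17.8), Vip (15.2), Nos1 (14.8), Calcb (12.1), Slc18a3 (10.6), Tac1 (8.18) and Npy (6.79), each of which overlapped its neighbour in that order. Chat (1.10) and Th (0.217) stood below all of these without overlap. In labelled KO colon the order began with Gal (193), Penk (181) and Vip (110 CPM per kilobase), each overlapping the next, and went on with Tac1 (38.8), Nos1 (36.4), Slc18a3 (21.2), Npy (9.05), Calcb (5.94), Chat (2.01) and Th (0.118). In labelled KO jejunum Gal (312) led, and then Vip (65.4), Penk (49.4), Tac1 (25.4), Npy (15.7), Nos1 (11.9), Slc18a3 (9.55), Calcb (6.52), Chat (0.734) and Th (0.376). All neighbours overlapped there, except Calcb and Chat. Chat ranked ninth and Th last in all 4 groups.

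**Figure D1:**
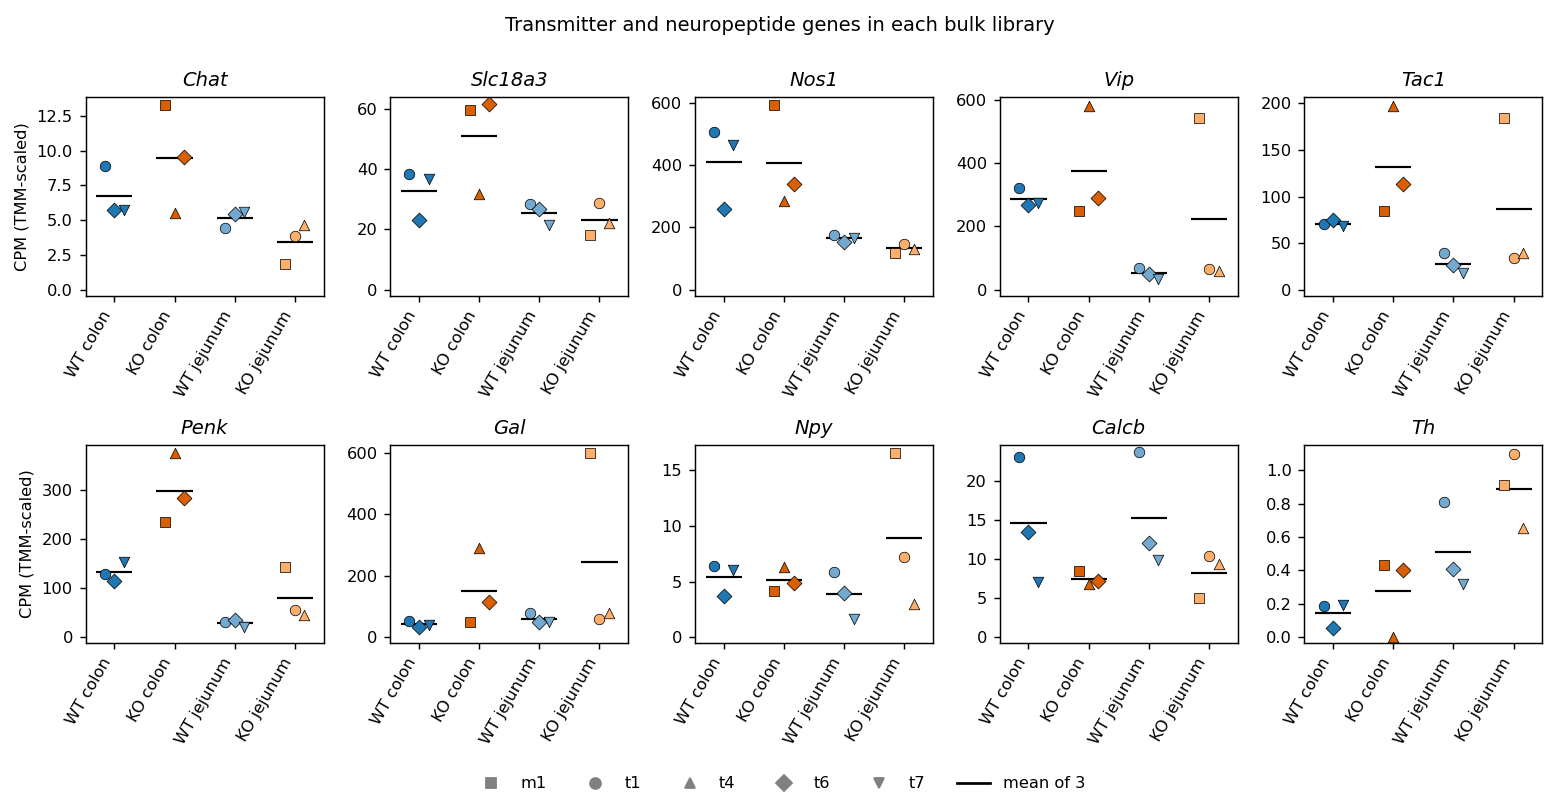
Level of each of the 10 genes in CPM (linear axis), 1 point per bulk library with its tag as the marker. Groups are WT colon, labelled KO colon, WT jejunum and labelled KO jejunum, and the line is the mean of 3 libraries. Nos1 and Penk lie higher in colon than in jejunum in both genotypes, and KO colon t4 and KO jejunum m1 are the highest of their groups for Vip, Tac1, Penk, Gal and Npy.

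The first comparison asked how colon and jejunum differ. In WT, 7 of the 10 genes were higher in colon and 3 lower, with a median log2 difference of 0.44 against 0.04 over all genes tested. One of the 10, Penk, rose (edgeR quasi-likelihood test, adjusted p under 0.05), where 1.56% of all genes were called in either direction and 0.694% were called higher in colon. Labelled KO libraries had 6 of the genes higher in colon and 4 lower, the median being 0.68 (0.03 over all genes), and 2 rose, Nos1 and Penk, where 1.29% of all genes were called in either direction and 0.460% higher in colon. The 2 tissue contrasts share no libraries. In bulk tissue, fewer cells of a type and less RNA per cell cannot be told apart, and this applies to every bulk value here. The 12 neuron markers moved with tissue: all 12 were higher in colon in both genotypes, 1 of them past the threshold in each, and their summed level ran from 651 to 999 CPM in WT colon, 587 to 814 in WT jejunum, 675 to 1094 in labelled KO colon and 521 to 596 in labelled KO jejunum. None of the 12 was at 0 in any library. Other markers moved with tissue too, and without overlap: summed glia markers ran from 238 to 323 CPM in WT colon against 158 to 169 in WT jejunum and from 255 to 346 against 119 to 199 in the labelled KO, and lymphatic endothelial markers from 322 to 460 against 29.97 to 168 and from 344 to 511 against 167 to 252. Summed pericyte, mesothelial and skeletal muscle markers went the other way, lower in colon without overlap in both genotypes. Pericyte markers ran from 1181 to 1649 CPM in WT colon against 4066 to 5449 in WT jejunum. In the labelled KO they ran from 977 to 1332 against 2131 to 3450. Of the 4 skeletal muscle markers tested, however, 3 were higher in WT colon. The part of cell content in the tissue differences was not tested beyond the ratio to neuron markers given below.

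Of the acetylcholine pair, Chat was at 8.87, 5.74 and 5.70 CPM in WT colon (t1, t6, t7) and at 4.42, 5.42 and 5.62 in WT jejunum. The lowest colon library lay just above the highest jejunum library, and the log2 difference was 0.39 (SE 0.39, edgeR adjusted p = 0.770). In labelled KO colon it was at 13.3, 5.52 and 9.52 CPM (m1, t4, t6) and in labelled KO jejunum at 1.83, 3.85 and 4.69 (m1, t1, t4), again without overlap, a log2 difference of 1.44 (SE 0.40, edgeR adjusted p = 0.09998). Slc18a3, the vesicular acetylcholine transporter, was at 38.3, 23.0 and 36.7 CPM in WT colon and 28.3, 26.8 and 21.6 in WT jejunum, which overlapped (0.35, SE 0.28, edgeR adjusted p = 0.687). In the labelled KO it was at 59.6, 31.8 and 61.7 CPM in colon and 18.0, 28.8 and 22.3 in jejunum, without overlap (1.15, SE 0.29, edgeR adjusted p = 0.0785). Neither gene of the pair passed the threshold in either genotype.

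Nos1 and Vip are the markers of inhibitory motor neurons. The colon libraries of Nos1 in WT, given above, averaged 411 CPM (SD 132, n = 3) and those of jejunum 165 (SD 10.7, n = 3), a log2 difference of 1.32 (SE 0.30, edgeR adjusted p = 0.0576). Labelled KO colon was at 595, 284 and 339.6 CPM and labelled KO jejunum at 119, 148 and 132. No library of one tissue reached those of the other, and Nos1 rose by 1.61 on the log2 scale (SE 0.30, edgeR adjusted p = 0.0316). That call remained in 4 of the 12 fits that left out 1 library, those without KO colon t4, WT colon t1, WT colon t6 or WT colon t7, and adjusted p over the 12 fits ran from 0.0136 to 0.106. Without both KO colon t4 and KO jejunum m1, a choice made after seeing the data, Nos1 passed in both genotypes, at 1.26 in WT (edgeR adjusted p = 0.0240) and 1.72 in the labelled KO (edgeR adjusted p = 0.0226). Vip was at 321, 268 and 273 CPM in WT colon and 69.8, 50.5 and 35.1 in WT jejunum, far apart, yet the difference of 2.47 on the log2 scale did not pass (SE 0.77, edgeR adjusted p = 0.169). In labelled KO jejunum Vip was at 542, 66.2 and 59.8 CPM, so that library m1 lay among the colon libraries (249, 581 and 291) and the groups overlapped (0.75, SE 0.73, edgeR adjusted p = 0.625).

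Tac1 was at 70.2, 74.6 and 68.5 CPM in WT colon and at 39.0, 26.7 and 17.8 in WT jejunum. All WT colon libraries were higher, and the difference was 1.35 on the log2 scale (SE 0.60, edgeR adjusted p = 0.361). Labelled KO libraries were at 84.9, 198 and 113 CPM in colon and 185, 34.3 and 39.4 in jejunum, where m1 again lay among the colon libraries (0.62, SE 0.59, edgeR adjusted p = 0.616). Penk, the enkephalin precursor, was at 128, 114 and 152 CPM in WT colon and 31.8, 35.0 and 20.3 in WT jejunum. These groups were well separated and Penk rose by 2.18 on the log2 scale (SE 0.41, edgeR adjusted p = 0.0249). In the labelled KO it was at 233, 374 and 283 CPM in colon and 142, 54.4 and 45.0 in jejunum, also without overlap, and rose by 1.88 (SE 0.40, edgeR adjusted p = 0.0489). The WT call was lost when any of the 6 WT libraries was left out (edgeR adjusted p from 0.0577 to 0.111) and remained in the 6 fits without a labelled KO library. The labelled KO call remained only without KO jejunum m1, at adjusted p = 0.00280, and missed in the other 11 fits, up to 0.137. It was also lost with RLE scaling (edgeR adjusted p = 0.0507), and the 6-library fit ended the labelled KO calls of Penk (0.188) and Nos1 (0.144). Without both KO colon t4 and KO jejunum m1, Penk passed in both genotypes, at 2.13 in WT (edgeR adjusted p = 0.000463) and 2.36 in the labelled KO (edgeR adjusted p = 0.00180).

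The other peptides and Th gave no call between tissues. Gal was at 53.4, 32.0 and 39.5 CPM in WT colon and 78.7, 49.2 and 50.1 in WT jejunum (log2 difference -0.51, SE 0.83, edgeR adjusted p = 0.890). The labelled KO gave 48.7, 292 and 115 CPM in colon and 598, 60.2 and 80.2 in jejunum, a span within each group wider than the gap between them (-0.70, SE 0.83, edgeR adjusted p = 0.697). Calcb was at 23.2, 13.5 and 7.14 CPM in WT colon and 23.8, 12.1 and 9.94 in WT jejunum, nearly the same range (-0.06, SE 0.44, edgeR adjusted p = 0.985). Npy reached at most 16.5 CPM, in KO jejunum m1, and ran from 3.74 to 6.37 in WT colon and 1.65 to 5.89 in WT jejunum (0.49, SE 0.58, edgeR adjusted p = 0.824). Th was the only one of the 10 whose jejunum libraries were all above the colon libraries of the same genotype, with 0.810, 0.408 and 0.320 CPM in WT jejunum, although its few reads gave a difference of -1.81 (SE 0.93) with edgeR adjusted p = 0.448. Labelled KO values were 0.434, 0 and 0.405 CPM in colon and 0.914, 1.10 and 0.656 in jejunum.

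Counting libraries alone, 5 of the 10 were higher in WT colon than in WT jejunum with no overlap (Chat, Nos1, Vip, Tac1, Penk) and 1 was lower (Th), where 11.2% and 11.7% of all genes were. Among labelled KO libraries, 4 were higher (Chat, Slc18a3, Nos1, Penk) and 1 lower (Th), where 9.93% and 9.64% were. DESeq2 on the same counts called 3 in WT (Nos1, Vip, Penk) and 4 in the labelled KO (Chat, Slc18a3, Nos1, Penk), where it called 5.53% and 6.83% of all genes. limma voom called 1 in WT and 2 in the labelled KO, where it called 1.67% and 1.46% of all genes. Without KO colon t4 and KO jejunum m1, edgeR called 4 in WT (Nos1, Vip, Tac1, Penk) against 4.92% of all genes, and 6 in the labelled KO (Chat, Slc18a3, Nos1, Vip, Tac1, Penk) against 3.24%.

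**Figure D2:**
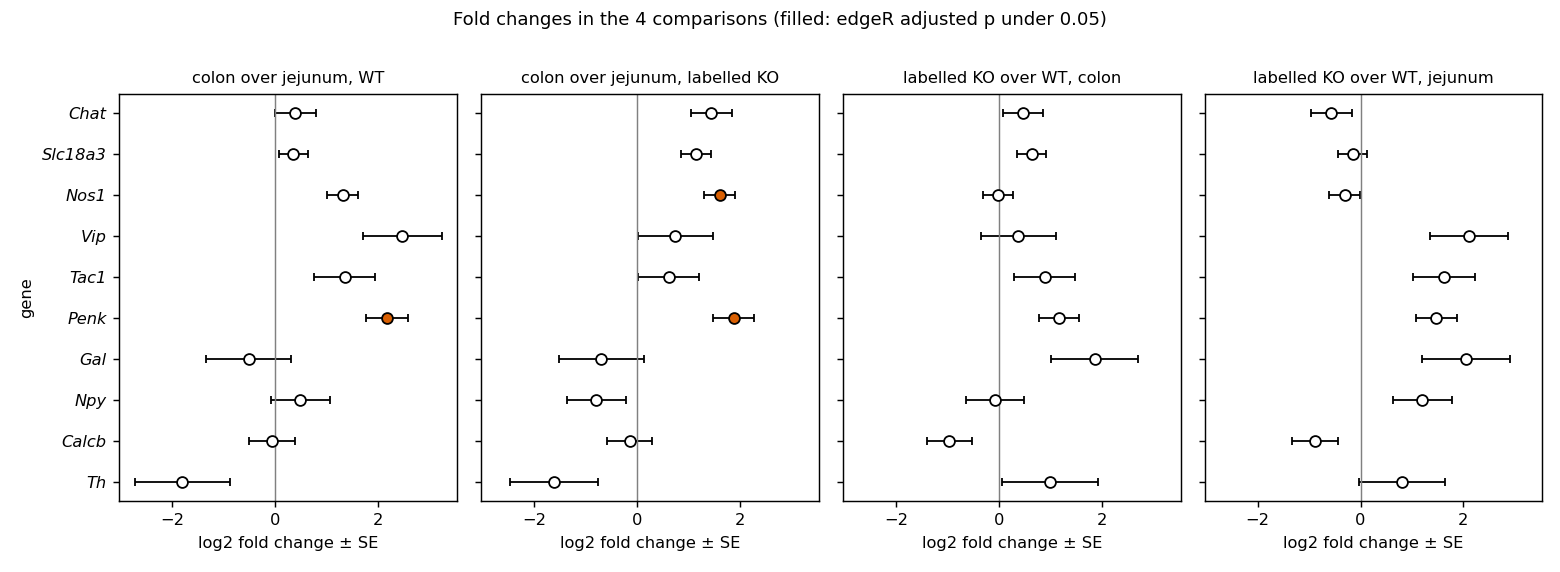
Log2 fold change of each gene in the 4 comparisons, with the standard error of the edgeR fit as the bar; filled points have an adjusted p under 0.05. The filled points are Penk in WT colon against jejunum, and Nos1 and Penk in labelled KO colon against jejunum.

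Set against the summed neuron markers of the same library, the tissue differences of Penk and Nos1 were smaller than on the CPM scale and kept their direction. The log2 ratio of Penk to the sum was higher in colon by 1.97 in WT and by 1.43 in the labelled KO, and that of Nos1 by 1.03 and 0.93. The labelled KO groups of Penk overlapped on this ratio (exact permutation p = 0.2). In the colon nuclei described below, 8.97% of Penk UMIs lay in neuron-like nuclei, against 97.8% of Nos1 UMIs. The Penk share was 22.2% in WT and 4.59% in the labelled KO. Of the 76 other nuclei with Penk, 67 held 1 UMI. Which cells made the Penk RNA of the bulk libraries was not tested. For Vip and Tac1 the ratio was higher by 2.29 and 1.19 in WT, without overlap, and by 0.82 and 0.36 in the labelled KO, with overlap. For Th, with few reads, it was lower in WT colon by 2.001 (log2 difference -2.001). Exact permutation tests (two-sided) of 3 libraries against 3 cannot give a p below 0.1, and over the 40 ratios tested the lowest adjusted p was 0.267.

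The second comparison set the labelled KO against WT within a tissue. None of the 10 passed in colon (edgeR, 0 called; 2 at unadjusted p under 0.05, Slc18a3 and Penk; 0 called by DESeq2, which called 4.60% of all genes, and 0 by limma voom, which called 0.455%), where 0.388% of all genes were called and 14.5% had an unadjusted p under 0.05. None passed in jejunum (edgeR, 0 called; 4 at unadjusted p under 0.05, Vip, Tac1, Penk and Gal; 1 called by DESeq2, Penk, against 3.85% of all genes; 0 by limma voom, against 0.417%), where 0.215% were called and 13.2% had an unadjusted p under 0.05. Of the 10, 7 were higher in the labelled KO in colon and 6 in jejunum, with median log2 differences of 0.56 and 1.003 against 0.0043 and 0.018 over all genes. Tac1 and Penk were higher in colon with no overlap, where 8.79% of all genes were (0 of the 10 and 10.4% of all genes were lower), and in jejunum Penk was higher and Nos1 lower with no overlap, where 11.0% and 11.2% were.

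Penk averaged 297 CPM (SD 71.2, n = 3) in labelled KO colon and 132 (SD 19.2, n = 3) in WT colon, a log2 difference of 1.17 (SE 0.39, edgeR adjusted p = 0.210), and 80.6 (SD 53.8) against 29.0 (SD 7.73) in jejunum, a difference of 1.47 (SE 0.40, edgeR adjusted p = 0.158). DESeq2 gave 1.48 with an adjusted p of 0.0178 in jejunum. Each labelled KO library of Penk was above each WT library of its tissue. Gal averaged 152 (SD 125) against 41.6 (SD 10.9) CPM in colon and 246 (SD 305) against 59.3 (SD 16.8) in jejunum, with log2 differences of 1.87 (SE 0.85, edgeR adjusted p = 0.349) and 2.05 (SE 0.86, edgeR adjusted p = 0.343). The SDs of Gal in the labelled KO were close to or above its means, and the groups overlapped. Tac1 differed by 0.89 in colon (SE 0.59, edgeR adjusted p = 0.533) and 1.63 in jejunum (SE 0.60, edgeR adjusted p = 0.289), and Vip by 0.38 (SE 0.73, edgeR adjusted p = 0.872) and 2.10 (SE 0.76, edgeR adjusted p = 0.277). Calcb was lower in labelled KO means in both tissues, 7.51 (SD 0.854) against 14.6 (SD 8.07) CPM in colon and 8.24 (SD 2.87) against 15.3 (SD 7.44) in jejunum, with overlap in both and log2 differences of -0.96 (edgeR adjusted p = 0.350) and -0.88 (edgeR adjusted p = 0.420).

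Chat, Slc18a3 and Nos1 had log2 differences between -0.57 and 0.64. Nos1 averaged 406 CPM (SD 166) in labelled KO colon and 411 (SD 132) in WT colon, which is -0.02 on the log2 scale (SE 0.30, edgeR adjusted p = 0.989). Its jejunum libraries averaged 133 (SD 14.9) against 165 (SD 10.7), every labelled KO library below every WT library, with a difference of -0.31 (SE 0.30, edgeR adjusted p = 0.695). All 12 neuron markers were lower in labelled KO jejunum too, with a median of -0.36. The log2 ratio of Nos1 to their sum differed by -0.010 there, with overlap. The part of neuron content in this difference was not tested further. Chat differed by 0.48 in colon (SE 0.39, edgeR adjusted p = 0.625) and -0.57 in jejunum (SE 0.39, edgeR adjusted p = 0.569), and Slc18a3 by 0.64 (SE 0.28, edgeR adjusted p = 0.329) and -0.15 (SE 0.28, edgeR adjusted p = 0.866). Npy differed by -0.07 (SE 0.57, edgeR adjusted p = 0.973) and 1.21 (SE 0.58, edgeR adjusted p = 0.403). Whether the genotype difference itself differed between tissues was tested as an interaction: none of the 10 passed (edgeR, 0 called and 0 at unadjusted p under 0.05, 0 by DESeq2 against 0.182% of all genes, and 0 by limma voom), with adjusted p from 0.941 to 0.992, where 0% of all genes were called and 4.16% had an unadjusted p under 0.05.

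Much of the spread sat in 2 libraries. In labelled KO colon t4 and labelled KO jejunum m1, each the only one of its group to do so, all 5 of Vip, Tac1, Penk, Gal and Npy were the highest of the group and all 4 of Chat, Slc18a3, Nos1 and Calcb the lowest. In jejunum m1 the excess over the middle library was 8.18-fold for Vip, 7.45-fold for Gal, 4.68-fold for Tac1, 2.62-fold for Penk and 2.31-fold for Npy. In colon t4 it was 2.53-fold for Gal, 1.99-fold for Vip, 1.75-fold for Tac1, 1.32-fold for Penk and 1.28-fold for Npy. Calcb, a peptide precursor, thus moved with Chat, Slc18a3 and Nos1 and not with the other five, and Th was the lowest in colon t4 but not in jejunum m1.

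Other measures moved with these 2 libraries. The summed fibroblast markers were at 9111 CPM in KO colon t4 against 2433 and 2002 in the other two of its group, and at 6067 in KO jejunum m1 against 2713 and 2426. The summed neuron markers were at 675 CPM in KO colon t4 against 1094 and 887, and at 596 in KO jejunum m1 against 591 and 521. The macrophage markers summed to 580 CPM in KO colon t4 against 257 and 167, and to 676 in KO jejunum m1 against 323 and 419. Smooth muscle markers went opposite ways in the 2 libraries, at 33281 CPM in KO colon t4 against 35498 and 44837 and at 89089 in KO jejunum m1 against 42289 and 45060. Transcript length moved in them too, though not in them alone. Genes under 1500 bases (1346 genes) differed from the other 2 libraries of the group by a median log2 of 0.57 in KO jejunum m1. In KO colon t4 that median was 0.18, below 0.23 in WT colon t6 and 0.25 in WT jejunum t6, and it was -0.40 in WT jejunum t7. Genes of 6000 bases or more (4548 genes) differed by -0.20 in KO jejunum m1 and -0.12 in KO colon t4. The part of cell content and of transcript length in the members' values was not tested. Without both libraries, none of the 10 was called between genotypes (edgeR, 0 in colon and 0 in jejunum, where 1.44% and 0.676% of all genes were called). Penk was then higher by 0.99 in colon (edgeR adjusted p = 0.0666) and 0.75 in jejunum (edgeR adjusted p = 0.186), Gal by 0.996 and 0.22, Tac1 by 0.50 and 0.38, and Vip differed by -0.07 and 0.26.

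Genes that make, load, process and receive these transmitters were read from 9 lists. Over all genes, edgeR called 1.56% between tissues in WT and 1.29% in the labelled KO. Of 7 cholinergic partner genes, 6 were higher in colon in each genotype, and 1, Bche, fell in colon of the labelled KO: this butyrylcholinesterase, which hydrolyses acetylcholine, averaged 11.8 CPM there and 55.1 in jejunum (log2 difference -2.22, SE 0.42, edgeR adjusted p = 0.0343). The call remained in 5 of the 12 fits without 1 library and was lost without KO colon t6, KO jejunum t1, KO jejunum t4, WT colon t1 or any WT jejunum library (adjusted p up to 0.120). Of 6 monoamine genes tested from 7 listed, 5 were higher in colon in each genotype and 1 rose, Dbh, which makes noradrenaline from dopamine: 40.5 against 6.42 CPM in WT (2.66, SE 0.38, edgeR adjusted p = 0.00774) and 46.1 against 9.15 in the labelled KO (2.33, SE 0.37, edgeR adjusted p = 0.0199). The WT call of Dbh remained in all 12 fits without 1 library. That of the labelled KO was lost without KO colon t6 (0.0765) or KO jejunum t4 (0.0679). Dbh and Th, both enzymes of catecholamine synthesis, thus had means in opposite order between tissues.

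Of 9 other neuropeptide genes tested from 10 listed, 6 were higher in colon in WT and 5 in the labelled KO, with medians of 1.05 and 1.08, and Sst, which encodes somatostatin, rose in both. It averaged 70.2 CPM in WT colon and 11.7 in WT jejunum (2.59, SE 0.43, edgeR adjusted p = 0.0169), and 90.2 and 16.9 in the labelled KO (2.42, SE 0.43, edgeR adjusted p = 0.0259). The WT call of Sst was lost without WT colon t1 or any WT jejunum library (up to 0.0810), and that of the labelled KO without KO colon m1, KO colon t6, KO jejunum t1, KO jejunum t4 or WT jejunum t6 (up to 0.0882). Sst is also made by enteroendocrine cells, whose summed markers ran from 63.9 to 141 CPM in labelled KO colon against 35.6 to 55.3 in labelled KO jejunum, and from 44.1 to 87.4 against 47.5 to 62.5 in WT. Their part in the level of Sst was not tested. Of 10 peptide-processing and granule genes, 7 were higher in colon in each genotype, and Pcsk1, a prohormone convertase that cleaves peptide precursors, rose in WT (34.1 against 12.1 CPM; 1.49, SE 0.31, edgeR adjusted p = 0.0361). Its call remained in 5 of 12 fits and was lost without KO colon t6 or any WT library (up to 0.166). Of 10 neuron fate factors, 7 and 6 were higher in colon, and Phox2a, a transcription factor of autonomic neurons, rose in the labelled KO (22.7 against 9.72 CPM; 1.22, SE 0.25, edgeR adjusted p = 0.0407). Its call remained only without KO colon t4, WT colon t6 or WT colon t7 (up to 0.138).

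The lists of synaptic vesicle genes, of nitrergic partners and of amino acid and purine transmission had 0 genes past the threshold with edgeR in each of the 4 comparisons. Of 10 synaptic vesicle genes, 8 were higher in colon in each genotype (medians 0.28 and 0.56; 2 and 6 at unadjusted p under 0.05, where 13.1% and 17.7% of all genes were), among them Sv2c in WT (0.82, edgeR adjusted p = 0.160). Of the 3 nitrergic partners, Nos1ap, an adaptor that binds neuronal nitric oxide synthase, was at 35.996 CPM in WT colon and 70.5 in WT jejunum (-0.97, edgeR adjusted p = 0.148; DESeq2 adjusted p = 0.0406), and Dlg4 differed by 0.48 (edgeR adjusted p = 0.364). Of the 4 amino acid and purine genes tested from 5 listed, Slc17a6, a vesicular glutamate transporter, averaged 1.92 and 0.863 CPM (1.15, edgeR adjusted p = 0.198) and Gad1 differed by 0.41 (edgeR adjusted p = 0.856).

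On the receiving side, 20 receptor and effector genes of these transmitters were listed. In labelled KO jejunum 18 of the 20 were lower than in WT, with a median of -0.50 against 0.018 over all genes. With edgeR, 0 were called and 4 had an unadjusted p under 0.05, where 0.215% and 13.2% of all genes did. Also lower there were all 12 neuron markers, 9 of 10 neuron fate factors and 8 of 10 synaptic vesicle genes. By contrast, 7 of 9 other neuropeptide genes and 6 of 8 smooth muscle markers were higher. The part of cell content in the receptor values was not tested. In colon 12 of the 20 receptor and effector genes were lower, with a median of -0.14 (0.0043 over all genes). Among them 1 fell, where 0.388% of all genes were called. This was Chrm2, a muscarinic acetylcholine receptor of smooth muscle, at a mean of 84.3 CPM in the labelled KO and 230.1 in WT (-1.45, SE 0.26, edgeR adjusted p = 0.0433). The 8 smooth muscle markers moved with it, all 8 lower in labelled KO colon (median -0.61, summed 33281 to 44837 CPM against 47551 to 69245). Of these, 5 were lower without overlap, where 10.4% of all genes were. Their part in the fall of Chrm2 was not tested. That call remained in 1 of 12 fits without 1 library, the one without KO jejunum m1 (adjusted p up to 0.190). Between tissues Gucy1b1, a subunit of the guanylate cyclase that nitric oxide activates, fell in colon in both genotypes: 62.4 against 132.9 CPM in WT (-1.09, SE 0.19, edgeR adjusted p = 0.0195) and 38.8 against 84.1 in the labelled KO (-1.12, SE 0.19, edgeR adjusted p = 0.0229). So Nos1 and Penk were higher in colon while this receptor was lower there. Summed pericyte markers, given above, were lower in colon too, without overlap in both genotypes. Those of interstitial cells of Cajal were lower without overlap in WT (403 to 487 CPM against 588 to 761) and overlapped in the labelled KO. Summed smooth muscle markers were higher in WT colon (47551 to 69245 against 38072 to 41771). The part of these cells in the fall of Gucy1b1 was not tested. The WT call of Gucy1b1 was lost without WT colon t1, WT colon t6, WT jejunum t1 or WT jejunum t6 (up to 0.0702). Its labelled KO call was lost without KO colon t6, KO jejunum t1 or KO jejunum t4 (up to 0.0808). Scaling by total counts also ended the calls of Bche (edgeR adjusted p = 0.0619), Phox2a (0.0528), Chrm2 (0.0888) and Gucy1b1 (0.0756 in WT and 0.0836 in the labelled KO). Fits on the 6 libraries of a contrast ended those of Bche (0.169), Dbh (0.137), Sst (0.142), Phox2a (0.157) and Gucy1b1 (0.155) in the labelled KO and of Chrm2 (0.123).

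The genes whose log2 CPM followed each member most closely over the 12 libraries are given as a description, since the libraries share tissue, genotype and the 2 libraries set apart above. Slc18a3 ran with Phox2a (Pearson r = 0.971, Spearman rho = 0.972, r = 0.947 without the 2 libraries farthest from the median) and Bsn (r = 0.968), a gene of the presynaptic active zone. Nos1 ran with Grid1 (r = 0.979, rho = 0.979, r = 0.961 without the 2), Jph4 (r = 0.977) and Ret (r = 0.969), the receptor tyrosine kinase needed for enteric nervous system development. Penk ran with Actg1 (r = 0.982), Pdyn (r = 0.977, rho = 0.979, r = 0.981 without the 2) and Angptl7 (r = 0.962), and Pdyn encodes another opioid peptide precursor. Vip ran with Tmtc2 (r = 0.960), Tac1 (r = 0.958, rho = 0.895, r = 0.931 without the 2) and Gm12715 (r = 0.952), and Tac1 with Rhoc (r = 0.960), Vip and Serpine2 (r = 0.954). Gal ran with Cartpt, another neuropeptide gene (r = 0.979, rho = 0.874, r = 0.902 without the 2), with Tmem11 (r = 0.954, r = 0.756 without the 2) and with Rhoa (r = 0.9497, r = 0.660 without the 2). Calcb ran with Cck, which encodes cholecystokinin (r = 0.905, rho = 0.937, r = 0.871 without the 2), Gpr37 (r = 0.863) and Zfp442 (r = 0.856). The closest gene to Chat was Mast1 (r = 0.941, rho = 0.818, r = 0.820 without the 2), to Npy Mfap5 (r = 0.884, rho = 0.839, r = 0.804 without the 2) and to Th Commd1 (r = 0.922, rho = 0.727, r = 0.723 without the 2). Next came Capn10 (r = 0.937) and Pick1 (r = 0.936) for Chat, Eng (r = 0.849) and Erg (r = 0.841) for Npy, and Zfp438 (r = 0.920) and Ppp1r7 (r = 0.910) for Th.

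In the colon nuclei, 2 clusters carried neuron markers. They were built without the 10 genes and the 9 lists, so the values below played no part in forming them. They held 191 of 4189 nuclei: 125 of 2615 in WT (4.78%) and 66 of 1574 in the labelled KO (4.19%), with median UMI counts of 4644 and 8609.5. Of the 191, 94.8% held a UMI of Syt1, 91.1% of Snap25, 85.9% of Elavl4 and 70.7% of Elavl3, whereas the neurofilament genes Nefl and Nefm were in 2.62% and 2.09%. Of the 12 fixed markers 10 were detected in each cluster, with 0 among its 10 leading genes. Myh11, a smooth muscle gene, had a UMI in 42.4% of neuron-like nuclei and 97.5% of smooth muscle-like nuclei. The part of RNA from other cells in the values below was not tested. The libraries shared 11 barcodes. With 1 library per genotype there is no test between genotypes, and all intervals below are exact 95% intervals that cover counting error only.

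The clusters divided along the transmitter genes. In cluster 16 (62 WT and 34 labelled KO nuclei, led by Epha5, Thsd7b, Ntrk3 and Egfem1) Nos1 had a UMI in 98.4% of WT nuclei (91.3 to 99.96%) and in 100% of labelled KO nuclei (89.7 to 100%). Chat had one in 0 of the 62 and 1 of the 34. In cluster 17 (63 and 32 nuclei, led by Tafa1, Rbfox1, Grik1 and Unc5d) Chat was detected in 63.5% of WT nuclei (50.4 to 75.3%) and 84.4% of labelled KO nuclei (67.2 to 94.7%), and Nos1 in 1 nucleus of each library. Cluster 16 thus held nearly all nuclei with Nos1 and cluster 17 nearly all with Chat. In smooth muscle-like nuclei of the same libraries, which should lack these genes, Nos1 had a UMI in 0.785% and 1.16% and Chat in 0.224% and 0%, at median UMI counts of 1886 and 2335.

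The peptide genes followed the same division. In cluster 16 Vip was detected in 20.97% of WT nuclei (11.7 to 33.2%) and 35.3% of labelled KO nuclei (19.7 to 53.5%), and Gal in 3.23% (0.393 to 11.2%) and 23.5% (10.7 to 41.2%). Tac1 was in 0 of the 62 and 0 of the 34 there, where a count of 0 allows up to 3 nuclei with a UMI, or 4.84% and 8.82%. In cluster 17 Tac1 was detected in 30.2% of WT nuclei (19.2 to 43.0%) and 53.1% of labelled KO nuclei (34.7 to 70.9%), Slc18a3 in 7.94% and 15.6%, and Calcb in 7.94% and 3.13%. Vip was in 2 and 1 nuclei of cluster 17 and Gal in 0 and 2. Penk was rare in both, in 3 and 1 nuclei of cluster 16 and 3 and 3 of cluster 17. Its shares, 4.8% and 6.06% of all neuron-like nuclei, compare with 0.897% and 2.56% in smooth muscle-like nuclei at the lower depths just given.

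**Figure D3:**
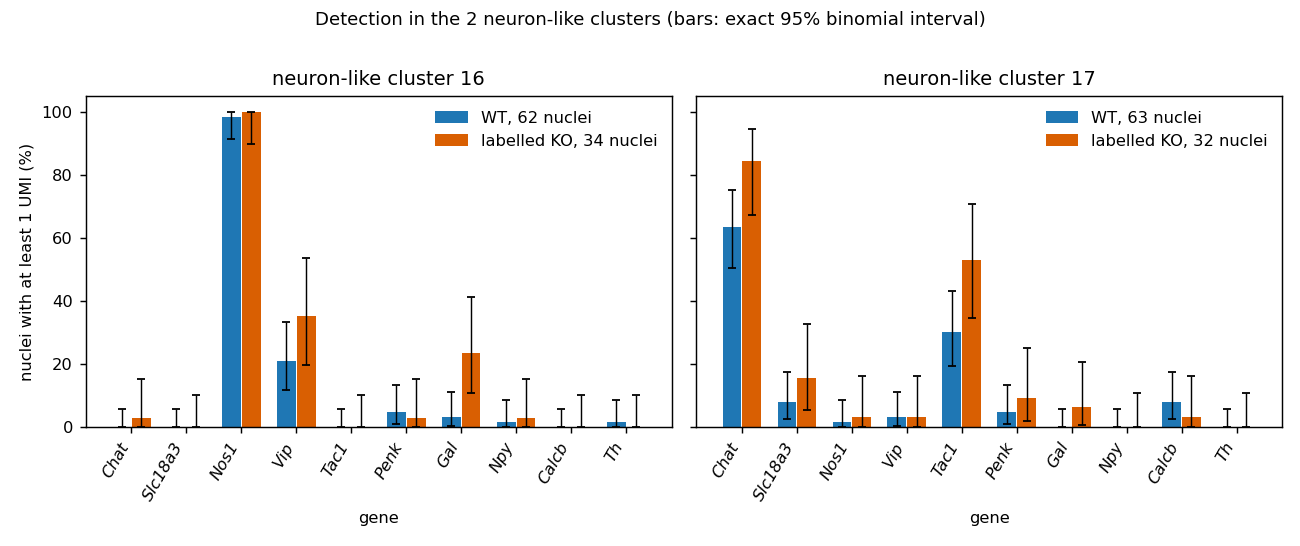
Percentage of nuclei with at least 1 UMI of each gene in the neuron-like clusters 16 and 17, by library, with exact 95% intervals. Nos1, Vip and Gal are mainly in cluster 16, and Chat, Tac1, Slc18a3 and Calcb mainly in cluster 17.

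Within single nuclei, 95 of the 191 (49.7%) held Nos1 without Chat, 66 (34.6%) Chat without Nos1, 2 both and 28 neither. The 28 were the shallowest, with a median of 2601 UMIs against 6308 and 8309 in nuclei with Nos1 alone and Chat alone. Of 28 nuclei with Vip, 25 also held Nos1, and of 12 with Gal, 10 did. Of 36 nuclei with Tac1, 31 also held Chat, as did 9 of 10 with Slc18a3 and 5 of 6 with Calcb. Vip and Tac1 met in 2 nuclei, Vip and Gal in 6, and Tac1 and Penk in 5.

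**Figure D4:**
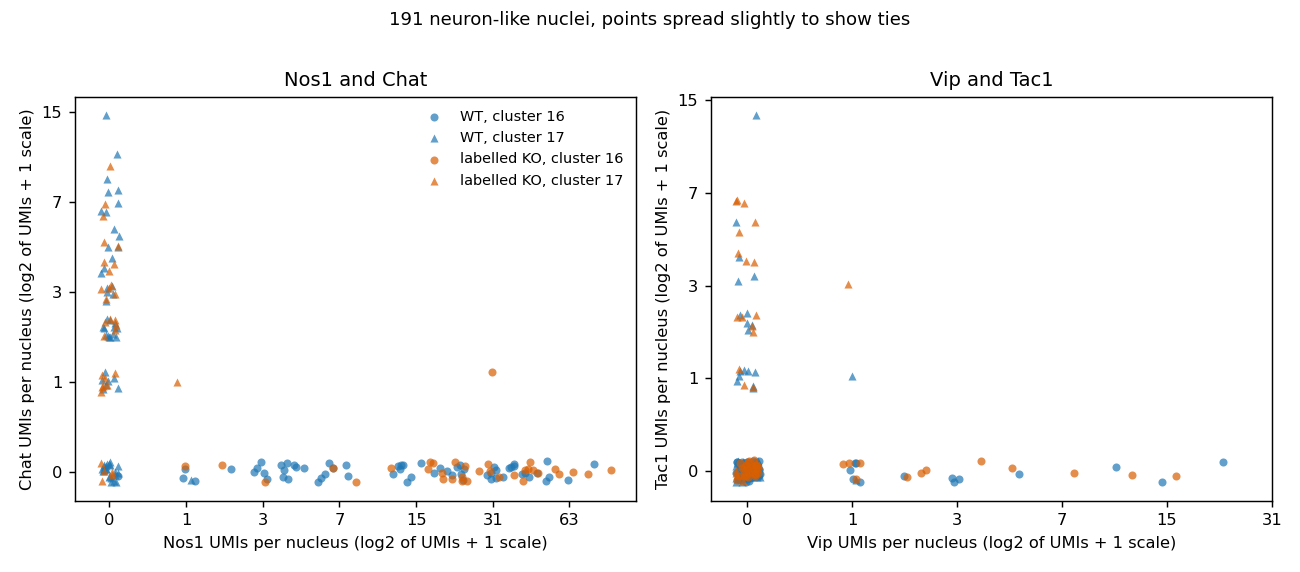
UMIs per nucleus in the 191 neuron-like nuclei on a log2(UMI + 1) scale, Nos1 against Chat and Vip against Tac1, with points spread slightly to show ties. Points lie along the axes, with 2 nuclei holding both Nos1 and Chat and 2 holding both Vip and Tac1.

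Levels per 10000 UMIs gave the abundance within neuron-like nuclei. Nos1 was at 14.6 in WT (13.8 to 15.4) and 17.6 in the labelled KO (16.5 to 18.6), above Chat at 1.78 and 1.31. Vip was at 0.867 and 0.903, and Tac1 at 0.582 (0.430 to 0.769) and 0.952 (0.723 to 1.23). Gal was at 0.0237 (0.00288 to 0.0858) from 2 UMIs in 2 WT nuclei and 0.394 (0.252 to 0.586) from 24 UMIs in 10 labelled KO nuclei. One of these labelled KO nuclei held 8 of the 24. The intervals of levels take UMIs of 1 nucleus as independent, so they are too narrow for such a gene. Labelled KO nuclei were deeper, so shares were also taken after thinning each nucleus to 1000 UMIs, which kept 116 WT and 64 labelled KO nuclei. Nos1 was then in 42.2% and 48.4% (unthinned 49.6% and 53.0%), Chat in 14.7% and 9.38% (32.0% and 42.4%), Vip in 4.31% and 7.81% (12% and 19.7%), Tac1 in 4.31% and 6.25% (15.2% and 25.8%) and Gal in 0% and 4.69% (1.6% and 15.2%). For Chat the order of the 2 libraries turned with thinning, as it did between share and level. With 1 library per genotype, no order between genotypes is read for any of these genes.

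Most of the 82 listed pathway genes, which were also left out of the clustering, did not divide so clearly. In both libraries 16 were detected in at least 2 times the share of nuclei in cluster 17 as in cluster 16 and 3 the other way, 12 and 12 were higher in cluster 17 and in cluster 16 by less, 27 had no one order in both libraries, and 12 had no UMI in either cluster. Chrm2, for one, was in 85.5% and 97.1% of cluster 16 and 74.6% and 90.6% of cluster 17. The genes named next were chosen after their values were seen. The transcription factor Etv1 was detected in 83.9% of WT and 88.2% of labelled KO nuclei of cluster 16 against 4.76% and 6.25% of cluster 17, and Casz1 and Bnc2 were the other way, in 9.68% and 8.82% against 79.4% and 87.5%, and in 19.4% and 17.6% against 88.9% and 100%. The choline transporter gene Slc5a7 was in 8.06% and 17.6% of cluster 16 and 33.3% and 53.1% of cluster 17. Prima1, which anchors acetylcholinesterase, was in 0% and 0% against 25.4% and 37.5%, while Ache itself differed less (19.4% and 17.6% against 31.7% and 34.4%). Among receptors, the opioid receptor gene Oprk1 was in 8.06% and 11.8% of cluster 16 and 44.4% and 75.0% of cluster 17, and Vipr2, a receptor for vasoactive intestinal peptide, in 1.61% and 0% against 39.7% and 25.0%. Sst, called between tissues in bulk, was in 0% and 2.94% of cluster 16 and 25.4% and 12.5% of cluster 17. Dbh, also called there, had a UMI in 1 nucleus of labelled KO cluster 16 and 1 of WT cluster 17.

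The share of each gene's UMIs that lay in neuron-like nuclei differed widely. It was 97.8% of 2348 UMIs for Nos1 and 95.4% of 241 for Chat, 84.6% of 13 for Slc18a3, 64.3% of 14 for Calcb, 59.5% of 215 for Vip, 44.8% of 58 for Gal, 37.5% of 285 for Tac1 and 8.97% of 145 for Penk. Npy and Th had 4 and 2 UMIs in all. These shares pool 2 libraries that differed for the peptide genes: in WT and the labelled KO they were 79.3% and 44.7% for Vip, 60.5% and 28.4% for Tac1, 22.2% and 4.59% for Penk, and 15.4% and 53.3% for Gal, on 13 UMIs in WT. Of the UMIs of Penk, 70 of 145 (48.3%) were in fibroblast-like nuclei, in 17 of 262, and 28 (19.3%) in mesothelial-like nuclei. A few nuclei held much of this. One labelled KO fibroblast-like nucleus of 5823 UMIs held 83 Tac1 and 32 Penk UMIs, with 4 neuron and 5 fibroblast markers detected, and 1 of 13079 UMIs held 15 Penk UMIs. Without the single fullest nucleus outside the neurons, the neuron-like share was 53.0% for Tac1 and 11.5% for Penk.

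**Figure D5:**
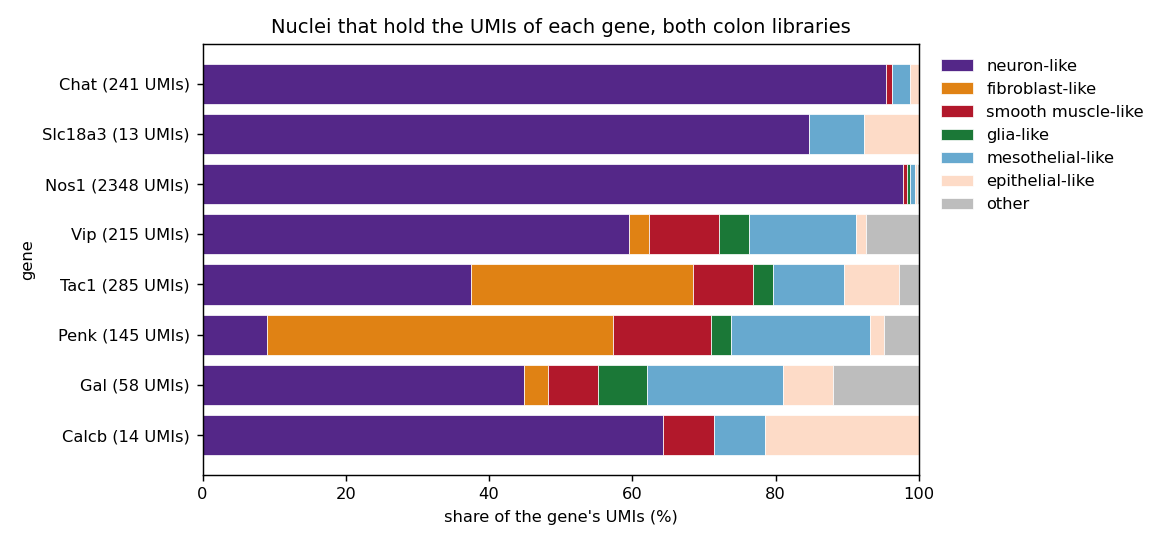
Share of the UMIs of 8 genes by class of nuclei, both colon libraries together, leaving out Npy and Th, which had under 5 UMIs each. Nos1 and Chat lie almost wholly in neuron-like nuclei (97.8% and 95.4%), and Penk mostly outside them (8.97% inside).

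The nuclei files also hold open-chromatin regions (35003 in WT and 26493 in the labelled KO). Within 1000 bases of the start interval the files give for each of the 10 genes, there was 1 region, near Nos1 in the labelled KO library (chr5:117856297-117856911). It had a count in 0 of 66 neuron-like and 2 of 1508 other nuclei, and no region lay that near the other 9 genes in either library. Regions are listed per library, and neuron-like nuclei were 4.78% and 4.19% of the nuclei kept. Nos1 had a UMI in 49.6% of WT neuron-like nuclei and yet no such region in WT. A missing region therefore does not show that a promoter was closed in neurons.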

How the data were processed

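Bulk values are read counts per gene deposited by the authors, for 12 libraries in 1 table. The submitters' processing notes name STAR 2.0.4b, Subread, featureCounts 1.4.5, edgeR and Cell Ranger, with builds GRCm38 and mm10, and the file headers of the nuclei name cellranger-arc 2.0.0. Neither the annotation version nor the use of strand is stated in the sources used here. Of 40757 lines, 276 were exact repeats of a gene and were removed. One edgeR 4.0.16 quasi-likelihood fit (R 4.3.3, TMM scaling, filterByExpr, robust) held all 12 libraries as 4 group means, with Benjamini-Hochberg adjustment over 20886 genes and a threshold of 0.05. Log2 CPM, used for the correlations and the transcript length values, had a prior count of 2. Alternatives were DESeq2 1.42.0, limma 3.58.1 voom, other scalings, no filter, 6-library fits, a block on the title tags, and leaving out each library. The ratio to neuron markers used a pseudocount of 0.5.

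The matrices of nuclei are deposited counts whose gene values were all even, in both libraries, while 11.6% and 11.5% of region values were odd. Gene values were therefore divided by 2 and taken as UMIs. Nuclei with 500 to 25000 UMIs, at least 200 genes and at most 5% mitochondrial UMIs were kept (2615 of 3476 in WT, 1574 of 2164 in the labelled KO), at median depths of 1690 and 1956. The upper limit removed 24 and 22 barcodes, of which 19 and 16 held at least 3 neuron markers. Clusters came from scanpy 1.11.5 and leidenalg 0.10.2 (2000 variable genes, 30 components, 15 neighbours, resolution 1.0), without the members and listed pathway genes, and were named from marker lists. Scrublet called 6 and 4 nuclei, too few to have worked, so doublets were not removed.

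The genes named are the 10 members, each listed pathway gene past the threshold in a comparison, the 2 with the smallest p between WT tissues where a list had none, and the 3 genes with the highest Pearson r of log2 CPM to each member over the 12 libraries, among genes whose mean log2 CPM is 1 or more. Of the genes this rule names, 2 are not reported here. Members, lists and tests were chosen with earlier results of these data known. The fits were tested on simulated data.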

Additional observations from a re-analysis of the deposited data

How the results depend on the processing

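Most directions held, but the 3 member calls did not: of the 12 fits without 1 library, Penk in WT kept its call in 6, Penk in the labelled KO in 1 and Nos1 in the labelled KO in 4. Over the alternatives that kept all libraries or left out KO colon t4 and KO jejunum m1 together, 380 of the members' results, most of them never called, kept direction and side of the threshold, 18 turned, 15 came past the threshold and 6 fell below it; over fits without 1 library these numbers were 531, 36, 8 and 25. The cause was not tested in any case. Members called between tissues in WT (1) became 3 with DESeq2, 4 with 6 libraries, 0 with a fixed replicate block and 4 without both libraries. In the labelled KO (2) they became 1 with RLE scaling, 4 with DESeq2, 0 with 6 libraries, 0 with a fixed replicate block and 6 without both libraries. A random replicate block in limma voom gave 1 and 2 (consensus correlation -0.110), where it called 255 and 200 of all genes, and ended the call of Phox2a (adjusted p = 0.0593). The fixed replicate block also ended the labelled KO calls of Bche and Phox2a (0.525 each), Dbh (0.291), Sst (0.412) and Gucy1b1 (0.554), and the WT calls of Sst (0.0877), Pcsk1 (0.07998) and Gucy1b1 (0.142). No label ties a tag to an animal, and deviations of libraries with the same tag in 2 tissues did not pair (r from -0.163 to 0.1002). DESeq2 called 1 between genotypes in jejunum. Without 1 library the counts ran from 0 to 2 in WT and 0 to 3 in the labelled KO, and were 0 between genotypes. Nos1 between genotypes in colon was 0.026 with total counts, 0.0077 with no filter, 0.0028 with 6 libraries and 0.20 without both libraries. Calcb between tissues was 0.010 in WT with total counts and 0.15 in the labelled KO with the fixed replicate block, which gave 0.26 for its difference between tissues. The difference between tissues in the genotype effect turned for Gal (0.014 with total counts, 0.21 with voom, 0.25 with the random replicate block, 0.78 without both libraries), Th (-0.55 with voom, -0.68 with the fixed replicate block, -0.52 with the random replicate block), Tac1 (0.11 without both) and Penk (0.23 without both). Without both libraries Vip between genotypes in colon was -0.070 and Gal between tissues in the labelled KO 0.21. Leaving single markers out of the neuron sum turned the ratio of Nos1 in jejunum (0.052) and of Th in colon (0.059) between genotypes. Over the fits without 1 library, Calcb ran from -0.40 to 0.038 in the labelled KO and -0.62 to 0.35 in WT between tissues, and from -0.51 to 0.45 for the difference. Gal ran from -1.59 to 1.12 in the labelled KO between tissues and from -1.07 to 1.69 for the difference, Nos1 from -0.40 to 0.19 in colon between genotypes and from -0.090 to 0.50 for the difference, and Npy from -0.25 to 0.093 in colon between genotypes and from -1.23 to 0.013 in the labelled KO between tissues. Vip ran from -0.086 to 0.60 in colon between genotypes and from -2.19 to 0.15 for the difference, and the difference ran from -0.55 to 0.45 for Penk, -1.15 to 0.54 for Tac1 and -0.26 to 0.74 for Th. Gad1 between WT tissues ran from -0.22 to 0.85. Over all genes, edgeR called 81 (colon) and 45 (jejunum) between genotypes and 325 (WT) and 270 (labelled KO) between tissues. DESeq2 called 960, 805, 1156 and 1427, and 38 for the difference against 0. The 6-library fits called 0, 21, 904 and 4, the fixed replicate block 29 in WT and 3 in the labelled KO between tissues, and the fits without both libraries 309, 145, 1056 and 694. Total counts called 94, 26, 269 and 183, with 93 higher and 90 lower in the labelled KO between tissues against 96 and 174 in the results, 158 and 111 against 145 and 180 in WT, and a median over all genes of 0.14 in the former. Group means were all under 10 CPM for Chat, Npy and Th. Few reads limit Th, at 0 to 40 per library, whereas Chat had 36 to 611.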

Other observations

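Cartpt, the precursor of another enteric peptide and the gene that followed Gal most closely, averaged 30.6 CPM in labelled KO colon and 10.1 in WT colon (edgeR adjusted p = 0.342), and 54.1 and 13.4 in jejunum (edgeR adjusted p = 0.278). In nuclei it was detected in 6.45% of WT and 29.4% of labelled KO nuclei of cluster 16 and in 1.59% and 9.38% of cluster 17, so both Gal and Cartpt had their higher shares in the labelled KO library, which was also the deeper one. Pdyn, which followed Penk in bulk, had 0 UMIs in all neuron-like nuclei, as had Calca, Adcyap1 and Gad2. Pcsk1 was detected in 27.4% and 58.8% of nuclei of cluster 16 and 19.0% and 37.5% of cluster 17.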
